A study of Mus musculus with 67 samples.

Results

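Microglia sorted from the brains of WT mice 24 h after an injection of lipopolysaccharide (LPS) were compared with microglia sorted from vehicle-injected WT mice, 8 mice against 6. These 14 libraries were taken from the sorted-cell count table by their library numbers (3299 to 3402) and by their WT female or WT male code, ending in LPS or saline, out of 67 samples in the series. WT LPS mice (4 females, 4 males) received LPS from E. coli O111:B4 at 1 mg/kg, by a route misspelt in the labels and read here as intraperitoneal, and WT vehicle mice (3 females, 3 males) received sterile PBS. The time of collection after vehicle is given in hours nowhere in the sources used here. The labels give the genotype of both groups as Ora1 WT, taken here as the Orai1fl/fl mice of the protocol, which have no Cre. Both groups had been given tamoxifen on 5 days, the last 30 to 35 days before the injection, and were 10 to 12 weeks old when injected, so the WT mice are floxed and tamoxifen-treated. They are read beside KO mice, taken as the Orai1fl/fl Cx3CR1-cre/ERT2 mice, treated the same way (7 with LPS for 24 h, 6 with vehicle), a line in which a tamoxifen-induced Cre is driven by the Cx3cr1 promoter, active in microglia and in other myeloid cells. WT males collected 6 h after LPS (n = 3) are the other comparison. Each of the 33 sorted libraries carries its own mouse name in the deposited sample sheet, so replicates are taken as separate mice.

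Microglia are the resident macrophages of the brain. LPS, a component of the outer membrane of Gram-negative bacteria, is recognised by Toll-like receptor 4 with its co-receptors CD14 and MD-2, which signals through the adaptors MyD88 and TRIF to the transcription factors NF-kB and IRF3. Injected into the body it acts on many cell types, and microglia can meet the cytokines released elsewhere. Whether LPS itself reached the sorted microglia was not measured here. Orai1 forms the pore of the store-operated calcium channel, which STIM proteins open when calcium stores in the endoplasmic reticulum run low.

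The deposited count table has 45707 rows and no gene identifier, so rows are given by their position, counted from 1 below the header. No gene name, function or sequence is therefore given for any row. Neither the marker genes of microglia nor Orai1 could be read, so the labelled cell type and genotype were not checked here. Of the 45707 rows, 32089 had a count in some sorted library and 15344 passed the filter on low counts. Those 15344 rows held 99.8% of all counts.

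Depth was alike in the groups. Total counts were 5882244 to 6985751 in LPS libraries and 4989974 to 7490132 in vehicle libraries (exact two-sided permutation test of the means, p = 0.953, adjusted over 3 measures 0.953). Between 17522 and 20543 rows had a count in LPS libraries, and between 17437 and 20615 in vehicle libraries (exact p = 0.577, adjusted 0.865).

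One LPS library stood apart from the other 7. On the first principal component of log2 CPM (counts scaled to a common library size), which held 26.9% of the variance among the 14 libraries, WT male LPS replicate 2 scored 4.48. The other 7 LPS libraries scored 27.1 to 58.5, and the 6 vehicle libraries scored -54.8 to -48.8. Its median Spearman coefficient across rows was 0.942 with the other LPS libraries and 0.938 with the vehicle libraries, whereas the other LPS libraries had 0.912 to 0.926 with vehicle. It was on the LPS side of all 6 vehicle libraries and is kept. Some of the results that rest on it are given with and without it, and the others only with it.

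**Figure D1:**
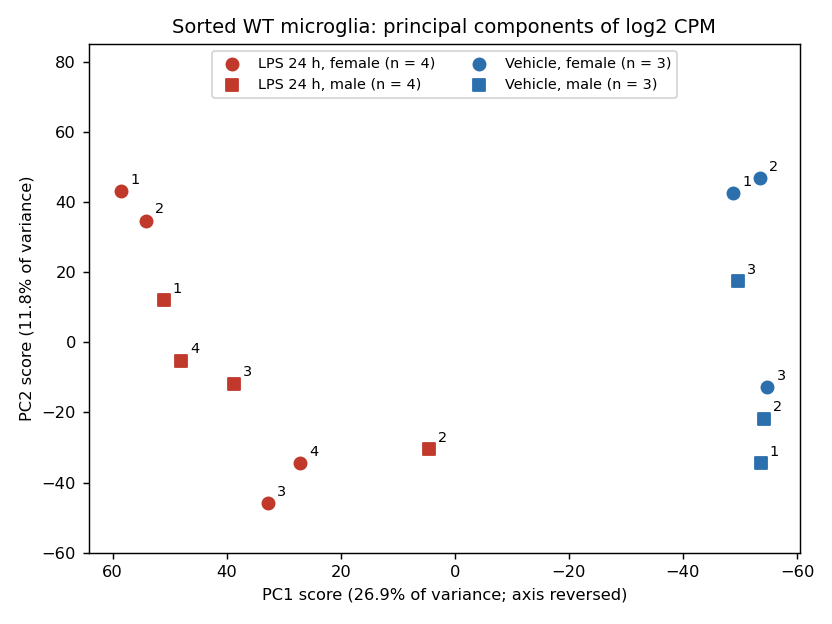
First and second principal components of log2 CPM over the 15344 tested rows for 8 LPS and 6 vehicle libraries, with circles for females, squares for males and the replicate number beside each point; the horizontal axis is reversed. The groups do not overlap on the first component, and male LPS replicate 2 lies between the other 7 LPS libraries and the vehicle libraries.

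About 1 tested row in 4 had a different level 24 h after LPS. With edgeR's quasi-likelihood test, fitted on all 33 sorted libraries with the sexes weighted equally, 2158 rows rose (14.1% of rows tested) and 1823 fell (11.9%) at a Benjamini-Hochberg adjusted p under 0.05, together 3981 (25.9%). An unadjusted p under 0.05 was found in 5623 of the 15344 rows tested. Without WT male LPS replicate 2 the counts were 2198 and 1888, and 3765 rows were called in both fits. In bulk RNA, a change in the mix of sorted cells and a change in RNA per cell cannot be told apart.

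Most changes were of modest size. The median log2 fold change, LPS over vehicle, was 0.78 among rows that rose and -0.80 among rows that fell, against 0.003 over all rows tested. A fold of over 2 was fitted in 802 rows that rose and 715 that fell, a fold of over 4 in 280 and 196, and a fold of over 8 in 133 and 68. The largest changes were thus more often upward, while the middle of the lists was nearly symmetric.

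**Figure D2:**
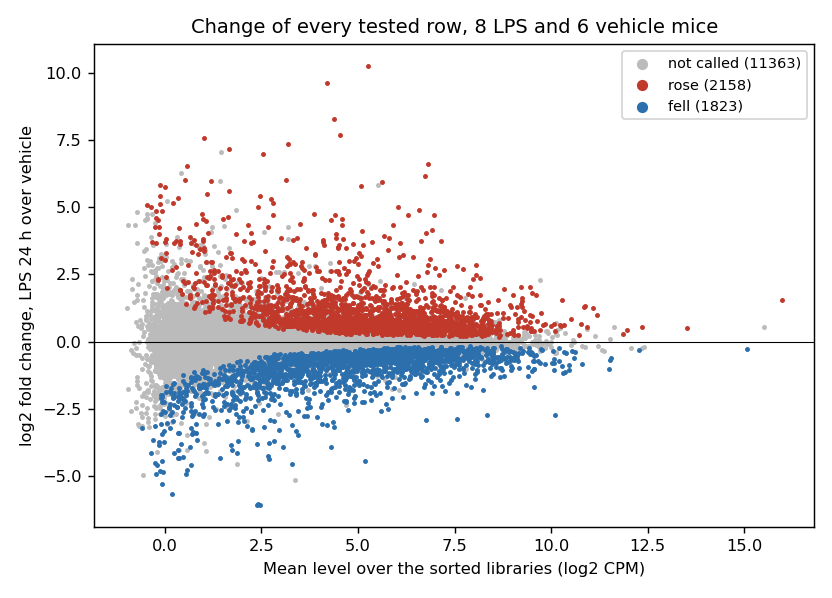
Log2 fold change of each tested row, LPS 24 h over vehicle, against its mean level in log2 CPM, with the 2158 rows that rose in red, the 1823 that fell in blue and 11363 rows not called in grey. Called changes are mostly small at high levels, though the most abundant row has 1.54. They reach their largest fitted values at middle and low levels.

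Part of the response was complete separation of the mice. In 918 rows (5.98% of rows tested) all 8 LPS mice were above all 6 vehicle mice, and in 802 rows (5.23%) all 8 were below. These included 900 of the 2158 rows that rose, or 41.7%, and 768 of the 1823 that fell, or 42.1%. Without male replicate 2 the 7 LPS mice were all above vehicle in 1125 rows (7.33% of rows tested) and all below in 989 (6.45%). Leaving out any mouse can only keep or raise such counts, and no other mouse was left out here. The rise is thus no evidence about this mouse. Male replicate 2 was the lowest LPS library in 783 of the rows that rose (36.3%), and the highest in 635 of the rows that fell (34.8%). The other LPS libraries had those places in 3.99% to 15.1% and 6.69% to 12.3% of the rows.

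The 10 most abundant rows held a larger share of counts after LPS, and 1 row made the groups separate. The 10 most abundant rows of each library held 18.4% to 27.0% of its counts in LPS libraries (mean 21.9% ± 3.09, SD, n = 8) and 13.1% to 17.9% in vehicle libraries (16.1% ± 1.88, n = 6). The groups did not overlap (exact two-sided permutation test, p = 0.000999, adjusted over 3 measures 0.003). Of the 10 rows with the highest mean CPM over the 14 WT libraries, 3 rose, 2 fell and 5 were not called.

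That row, the most abundant by its mean over the 14 WT libraries, was singled out after its values were seen. In vehicle libraries rows 36924 and 32212 had higher means. Without it, the 9 next most abundant rows of each library held 10.3% to 18.5% of counts in LPS libraries and 10.3% to 14.95% in vehicle libraries, and the groups overlapped. The row itself took a median of 8.64% of counts in LPS libraries, with a lowest value of 6.21% and a highest of 10.7%, against a median of 3.40% in vehicle libraries, from 2.79% to 3.59%. Every LPS mouse was above every vehicle mouse, and male replicate 2 was the lowest of the LPS mice. Its log2 fold change was 1.54 ± 0.16 (SE; edgeR adjusted p = 9.51e-08). In KO mice the same row held 7.80% to 10.9% of counts after LPS and 3.06% to 6.38% with vehicle. In the 3 WT males at 6 h it held 4.18%, 5.09% and 5.60%, above the WT vehicle libraries and below the WT libraries at 24 h.

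The rows with the lowest p among those that changed the same way in both sexes and both runs of library numbers are described next, 2 in each direction. CPM values are scaled to the counts in tested rows by TMM, and are compared between groups, not between rows, because rows carry no length.

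Row 10815 had the lowest p of all rows. Its level after LPS was 707 to 919 CPM with a median of 749 CPM, and with vehicle it was 251 to 357 CPM with a median of 326 CPM. Every LPS mouse was above every vehicle mouse, with male LPS replicate 2 the lowest of the 8. The means were 778 ± 73.2 CPM (SD, n = 8) and 316 ± 39.7 CPM (n = 6), a log2 fold change of 1.30 ± 0.08 (SE; edgeR adjusted p = 2.36e-11). Within females it was 1.19 ± 0.11 and within males 1.41 ± 0.11.

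Row 5811 was more abundant and changed more. It stood at 1375 to 2304 CPM after LPS, with a median of 1834 CPM, and at 581 to 759 CPM with vehicle, with a median of 621 CPM. The groups did not overlap, and the lowest LPS value was again that of male replicate 2, the next LPS value being 1586 CPM. The log2 fold change was 1.53 ± 0.11 (SE; edgeR adjusted p = 2.95e-10), from means of 1856 ± 303 and 641 ± 66.7 CPM.

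Row 902 fell by 1.14 ± 0.10 on the log2 scale (SE; edgeR adjusted p = 6.43e-09). After LPS it stood at 28.6 to 44.2 CPM with a median of 39.2 CPM, and with vehicle at 75.9 to 99.8 CPM with a median of 83.3 CPM. The highest LPS mouse, male replicate 4, was well below the lowest vehicle mouse.

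Row 15737 fell by 1.05 ± 0.09 on the log2 scale (SE; edgeR adjusted p = 6.43e-09). It stood at 284 to 416 CPM after LPS, with a median of 323 CPM, and at 616 to 796 CPM with vehicle, with a median of 678 CPM. Here the mice nearest to vehicle were male LPS replicates 3 and 2, at 416 and 376 CPM, and the groups did not overlap.

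**Figure D3:**
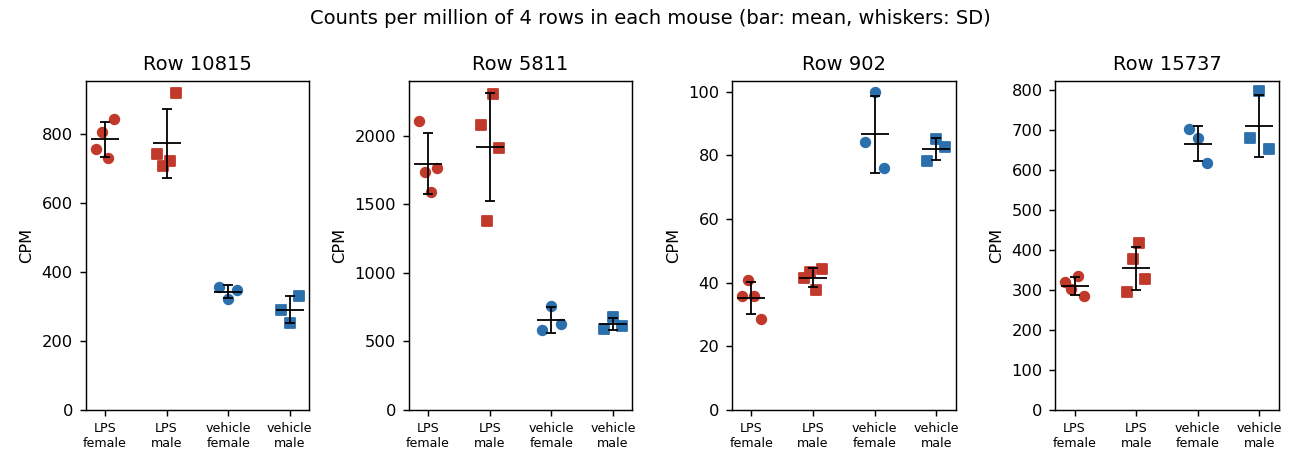
CPM of rows 10815, 5811, 902 and 15737 in each WT mouse, LPS 24 h on the left and vehicle on the right of each panel, with bars for the mean and whiskers for the SD of each sex. In all 4 panels the LPS and vehicle mice form groups that do not overlap, and females and males of a group lie close together.

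The chance of a call depended on a row's level. The tested rows were divided by mean level into 4 bins of 3836 rows. In the lowest bin 3.75% rose and 5.27% fell. In the next bins 10.3%, 17.6% and 24.6% rose and 11.4%, 12.6% and 18.3% fell. The sizes ran the other way, with a median log2 fold change of 2.40 among called rows that rose in the lowest bin and 0.62 in the highest, and of -2.03 and -0.56 among those that fell. At low counts only large changes can pass the test, so these medians do not show that scarce transcripts changed more.

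A few rows were near absence in one group. In 29 rows that rose the 6 vehicle libraries held no more than 3 counts together, and in 7 of these they held 0. After LPS these 29 rows averaged 0.638 to 87.7 CPM, with a median of 1.48 CPM, and 14 of them had a count in all 8 LPS libraries. In the other direction, 7 rows that fell had no more than 3 counts in the 8 LPS libraries together and averaged 0.606 to 1.51 CPM with vehicle. The limit of 3 counts is easier to meet over 6 libraries than over 8, so 29 and 7 cannot be set against each other. Such rows passed the filter on low counts only through groups where they were higher. Fold changes of such rows depend on the prior count of the fit and are not given.

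The rows called as changed held a large part of the RNA. Rows that rose made up 28.1% to 37.9% of counts in LPS libraries and 18.6% to 21.0% in vehicle libraries. The most abundant row, which is among them, alone held 6.21% to 10.7% and 2.79% to 3.59%. Rows that fell made up 15.3% to 19.0% in LPS libraries and 26.0% to 28.8% in vehicle libraries. These rows were chosen in the same libraries, so the shares describe the size of the response and are no test of it.

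The libraries carry 2 separate runs of numbers, 3299 to 3315 (5 LPS and 3 vehicle WT mice) and 3376 to 3402 (3 and 3), which share no WT library. The first run alone gave 2382 called rows of 15990 tested, 1305 that rose (8.16%) and 1077 that fell (6.74%). The second gave 1879 of 15809 tested, 976 that rose (6.17%) and 903 that fell (5.71%). Of the 1298 rows that rose in the first run and were tested in the second, 1260 (97.1%) had the same direction there, where 48.6% of all rows tested were higher after LPS. The second run called 676 of them, or 52.1%, against 6.17% of all its rows. Of 1074 rows that fell in the first run, 1038 (96.6%) had the same direction in the second and 567 were called (52.8%, against 5.71% of all rows). No row called in the first run was called the opposite way in the second.

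The sizes were a little smaller where they had not been chosen. Rows that rose in the first run had a median log2 fold change of 1.01 there and 0.85 in the second run, and rows that fell had -1.01 and -0.78. In the other direction, 69.3% of rows that rose in the second run were called in the first, against 8.16% of all its rows. Of those that fell, 62.8% were called, against 6.74%. Without male LPS replicate 2, which belongs to the first run, 72.5% and 69.1% were called, against 9.70% and 8.53%. There 1 row was called the opposite way. Over all 15080 rows tested in both runs, the log2 fold changes had a Pearson coefficient of 0.439 and a Spearman coefficient of 0.50, as a description across rows that are not independent.

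**Figure D4:**
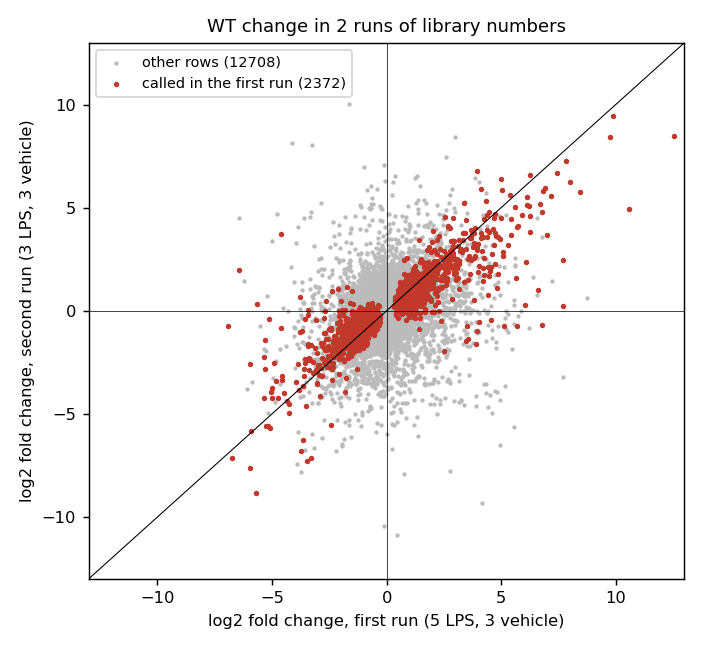
Log2 fold change, LPS 24 h over vehicle, of each row tested in both runs of library numbers, with the first run on the horizontal axis, the second on the vertical axis, the line of equality, and the rows called in the first run in red. Red points lie mostly at the lower left and upper right, close to the line, while the other rows form a cloud around 0.

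Both sexes responded, and the response was not detectably different between them. Females had 1252 rows that rose (8.16% of rows tested) and 995 that fell (6.48%), together 2247 (14.6%). Males had 945 rows that rose (6.16%) and 629 that fell (4.1%), together 1574 (10.3%). The male count was 1815 without male LPS replicate 2. It was 1004 without male LPS replicate 1, 862 without male vehicle replicate 1 and 940 without male vehicle replicate 3, and the female count was 1485 without female vehicle replicate 2. Deviations of same-numbered female LPS and vehicle mice correlated weakly (0.12 to 0.17). With the replicate number as a block the female count was 1538. The count in 1 sex is thus set in part by single mice.

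The difference in response, males minus females, passed the threshold in 0 rows with edgeR. Of the 15344 rows tested, 575 had an unadjusted p under 0.05. DESeq2 called 7 rows and limma voom with quality weights called 0. Without male LPS replicate 2 edgeR called 0 as well. A p above the threshold does not show that the sexes respond alike.

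Row 8060 had the lowest p of the sex comparison. In females it stood at 106, 109, 117 and 148 CPM after LPS and at 45.9, 49.7 and 54.8 CPM with vehicle. In males it stood at 75.8, 79.97, 80.2 and 98.0 CPM after LPS and at 55.7, 75.6 and 77.8 CPM with vehicle. The female groups were far apart, while the lowest male LPS mouse was within the male vehicle range. The log2 fold change was 1.26 ± 0.15 in females and 0.26 ± 0.14 in males, a difference of -0.997 ± 0.20 (SE; edgeR adjusted p = 0.662), which only DESeq2 called (adjusted p = 0.0111).

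Each sex, fitted without the other, gave a list that could be read in the other sex. Of 1365 rows that rose in females and were tested in males, 1332 (97.6%) had the same direction in males, where 48.9% of all rows were higher after LPS, and 546 (40%, against 4.77% of all rows) were called. Of 1219 rows that fell in females, 97.5% had the same direction in males and 316 (25.9%, against 2.83%) were called. Without male LPS replicate 2, males called 619 (45.4%, against 5.69% of all rows) of the rows that rose in females and 368 (30.2%, against 3.55%) of those that fell. From males to females, 699 of 703 rows that rose (99.4%) and 406 of 411 that fell (98.8%) had the same direction. Of these male lists 77.7% and 76.9% were called in females, against 9.71% and 8.72% of all rows. No row called in 1 sex was called the opposite way in the other.

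KO mice gave rows chosen without any WT library. A fit of the KO libraries alone, with 14027 rows tested, called 1902 rows that rose and 1517 that fell. In each WT mouse the median difference of these rows from the mean of the WT vehicle mice of the same sex was taken on the log2 CPM scale. For the rows that rose in KO mice it was 0.46 to 0.84 in WT LPS mice, with a median of 0.70, and -0.09 to 0.12 in WT vehicle mice. For the rows that fell in KO mice it was -0.80 to -0.42 in WT LPS mice, with a median of -0.74, and -0.08 to 0.08 in WT vehicle mice. Over all tested rows it was -0.04 to 0.03 in WT LPS mice. Male LPS replicate 2 gave the value nearest to 0 in both lists, and without it the LPS ranges were 0.67 to 0.84 and -0.80 to -0.62. Each vehicle mouse was compared with the mean of the other vehicle mice of its sex. Its reference thus rests on fewer mice than that of an LPS mouse.

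The same rows held different shares of the counts in LPS and vehicle libraries, and abundant rows weigh most in such shares. Rows that rose in KO mice held 27.0% to 36.8% of counts in WT LPS libraries and 17.9% to 20.3% in WT vehicle libraries. Rows that fell in KO mice held 14.1% to 17.6% in WT LPS libraries and 24.2% to 26.4% in WT vehicle libraries. Read the other way, a fit of the WT libraries alone called 2220 rows that rose, of 14162 tested. These rows had median differences of 0.58 to 0.79 in KO LPS mice and -0.10 to 0.13 in KO vehicle mice.

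**Figure D5:**
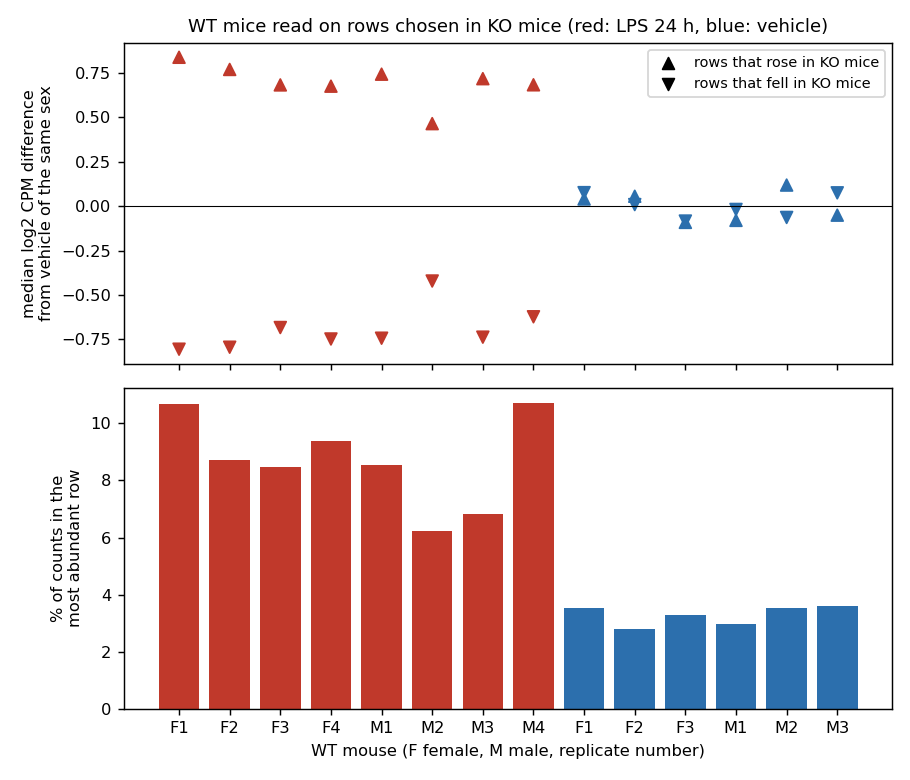
Above, the median log2 CPM difference of KO-chosen rows from the mean of the vehicle mice of the same sex, in each WT mouse, with upward triangles for rows that rose in KO mice and downward triangles for rows that fell; below, the percent of counts in the most abundant row, with LPS mice in red on the left and vehicle mice in blue on the right. Every LPS mouse stands apart from every vehicle mouse, and male LPS replicate 2 is the LPS mouse nearest to vehicle in both lists and in the share of the most abundant row.

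The response of WT mice minus that of KO mice passed the threshold in 0 rows with edgeR. Of the 15344 rows tested, 537 had an unadjusted p under 0.05. DESeq2 called 10 rows and voom called 1. Without WT male LPS replicate 2 the count was 0, without KO male vehicle replicate 2 it was 1 and without KO male LPS replicate 4 it was 2. Rows 10815 and 5811 had log2 fold changes of 1.34 ± 0.08 and 1.47 ± 0.11 in KO mice, and their differences from WT were -0.04 ± 0.11 and 0.06 ± 0.15, WT minus KO (SE). Rows 902 and 15737 had -1.15 ± 0.10 and -1.15 ± 0.10 in KO mice, with differences of 0.01 ± 0.14 and 0.10 ± 0.13.

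Row 9459 had the lowest p for that difference. In WT mice it averaged 114 ± 16.5 CPM after LPS (SD, n = 8) and 71.5 ± 10.9 CPM with vehicle (n = 6). In KO mice it averaged 103 ± 17.0 CPM after LPS (n = 7) and 106 ± 14.3 CPM with vehicle (n = 6). The KO vehicle mice were thus near the level of the LPS mice of both genotypes, and the WT vehicle mice were the lower group. The response differed by 0.75 ± 0.13 on the log2 scale, WT minus KO (SE; edgeR adjusted p = 0.0775). This row was called by DESeq2 (adjusted p = 0.000327), by voom (0.0447) and with a term for the run (0.0337). It was also called without KO male vehicle replicate 2 (0.0102) and without KO male LPS replicate 4 (0.0229). In 25 of the 27 fits that left out 1 library it was not called, nor in 7 of 10 other settings. The edgeR adjusted p was 0.447 with the replicate number as a block and 0.157 in the compared groups alone.

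WT males at 24 h were also set against WT males at 6 h, which form their own run of library numbers (68 to 73), so time and run cannot be told apart. At 24 h 427 rows were higher (2.78% of rows tested) and 350 lower (2.28%) than at 6 h, together 777 (5.06%). Without male LPS replicate 2 at 24 h they were 434 and 296. The count was 53 in a fit of the 7 libraries alone, and leaving out 1 mouse moved it between 165 (6 h replicate 1) and 1648 (6 h replicate 3), so its size is not settled by these data. It was 174 without 6 h replicate 2, and 483 and 402 without 24 h replicates 1 and 4.

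Row 3882 had the lowest p of the rows that were higher at 24 h. It stood at 99.3, 139, 140 and 152 CPM in males at 24 h and at 20.4, 25.0 and 30.0 CPM at 6 h. The 6 h mice lay within the range of the male vehicle mice, at 23.3, 27.2 and 40.03 CPM, or just below it. The log2 fold change of 24 h over 6 h was 2.40 ± 0.27 (SE; edgeR adjusted p = 2.14e-05). Row 5216 had the same shape, at 680, 1022, 1075 and 1098 CPM at 24 h and 246, 281 and 366 CPM at 6 h, a log2 fold change of 1.70 ± 0.20 (edgeR adjusted p = 2.14e-05). Its male vehicle mice stood at 304, 312 and 420 CPM. In both rows the lowest 24 h male was replicate 2.

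Row 9883 was low at 24 h, at 40.9, 41.8, 46.1 and 52.2 CPM, against 91.0, 104 and 123 CPM at 6 h. Male vehicle mice stood at 80.3, 94.9 and 96.3 CPM, so the 6 h mice were near or above them. The log2 fold change of 24 h over 6 h was -1.23 ± 0.15 (SE; edgeR adjusted p = 2.14e-05). Row 9768 had another shape, with 539, 544, 570 and 708 CPM at 24 h, 902, 1112 and 1219 CPM at 6 h, and 553, 625.02 and 649 CPM in male vehicle mice. The 6 h mice were the high group and the 24 h mice were near vehicle. Its log2 fold change of 24 h over 6 h was -0.87 ± 0.11 (edgeR adjusted p = 3.05e-05), with an adjusted p of 0.0687 in a fit of the 7 libraries alone, and that of 24 h over vehicle in males was -0.05 ± 0.11 (adjusted p = 0.856).

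The 4 rows named for the 24 h response had 6 h means between those of the other 2 groups of males. Row 10815 averaged 772 ± 99.2 CPM at 24 h (SD, n = 4 males), 509 ± 25.0 CPM at 6 h (n = 3) and 290 ± 39.4 CPM in male vehicle mice (n = 3). Row 5811 averaged 1916 ± 396, 848 ± 145 and 626 ± 43.5 CPM in the same order. Row 902 averaged 41.6 ± 2.93, 57.6 ± 7.51 and 81.9 ± 3.49 CPM, and row 15737 averaged 353 ± 53.9, 600 ± 73.8 and 709 ± 76.9 CPM. These rows were chosen for their change at 24 h in the same 24 h and vehicle mice, which favours a 6 h value between the other groups, so the values are a description with no test.

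The KO-chosen lists, which are from 24 h, were read in the 6 h mice too. Rows that rose in KO mice at 24 h had median log2 differences from the WT male vehicle mice of 0.68, 0.74 and 0.29 in 6 h replicates 1, 2 and 3, and rows that fell had -0.83, -0.90 and -0.17. In 24 h males these values were 0.74, 0.46, 0.72 and 0.68 for rows that rose, and -0.74, -0.42, -0.74 and -0.62 for rows that fell, in replicates 1 to 4. Replicates 1 and 2 at 6 h were in the range of the 24 h mice or beyond it, and replicate 3 was nearer to vehicle. Both sets of values share the vehicle mice.

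The spread between WT mice was larger after LPS than with vehicle by most of the values taken. The common biological coefficient of variation was 39.7% over the WT LPS mice (39.2% without male replicate 2) and 34.8% over the WT vehicle mice. In KO mice it was 38.6% with LPS and 39.6% with vehicle, so the order was not the same there. Among rows that fell, the median SD of log2 CPM was 0.32 after LPS (0.30 without male replicate 2) and 0.23 with vehicle. The larger SD was after LPS in 67.0% of these rows (63.2% without male replicate 2). Among rows that rose the medians were 0.285 after LPS and 0.264 with vehicle, and 56.0% of rows had the larger SD after LPS. Without male replicate 2 the LPS median was 0.262, just below that with vehicle, and the share was 50.3%. Among the 11363 rows not called the medians were 0.46 (0.45 without male replicate 2) and 0.42. The larger SD was after LPS in 57.8% of them (56.6% without male replicate 2). Over all rows tested that share was 58.7% (56.5% without male replicate 2). These SDs were taken over both sexes and both runs, from 8 LPS and 6 vehicle mice. Unequal group sizes alone can shift such medians and shares. No test was made of the difference between groups or between sets of rows.

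Called rows were found along the whole table. Among rows 1 to 4570, 18.0% of those tested rose and 12.2% fell, at a median level of 4.77 log2 CPM. Among rows 41137 to 45707, 4.56% rose and 9.92% fell, at a median level of 1.62 log2 CPM. In 8914 cases a row and the next row were both tested. The first row rose in 1386 of these, and there the next row also rose in 232 (16.7%). The first row fell in 1113 of the 8914, and there the next row also fell in 140 (12.6%). Of all tested rows 14.1% rose and 11.9% fell, but these include rows without a tested neighbour, so the shares are not over like sets. What orders the rows is not given in the sources used here.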

How the data were processed

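RNA from microglia sorted by flow cytometry from whole brain (0.97 ng per library) was sequenced from a stranded total RNA kit of the SMARTer type, per the labels' protocols. Per the submitters' processing notes, the tools include Trim Galore 0.6.7, STAR 2.7.10a and Salmon 1.10.1, and the build is GRCm38. Which of these gave the deposited counts is not given in the sources used here. The deposited values are whole-number counts per row, unnormalized; the culture table was not used. The deposited sample sheet calls the sorted libraries cultured, and the sample labels were followed.

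Rows were kept with filterByExpr (minimum count 10, minimum total 15) over all 33 sorted libraries, scaled by TMM, and tested with edgeR 4.0.16 in R 4.3.3 (quasi-likelihood F test, a mean for each group, two-sided, Benjamini-Hochberg adjusted p under 0.05). Log2 CPM used a prior count of 2. Alternatives were DESeq2 1.42.0, limma 3.58.1 voom, RLE, other filters, the run of library numbers, the replicate number and leaving out each library. The test was checked on simulated data.

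Named rows passed the threshold, had a mean log2 CPM of at least 1, the same direction in both sexes and both runs and over 3 counts in each group, and had the lowest p, 2 in each direction. For the other comparisons they are up to 2 called rows in each direction with the lowest p, or the 1 row with the lowest p. The comparison, these rules and the alternatives were chosen with earlier results of these data known. Among pairs of WT libraries of the same sex and treatment (LPS 24 h or vehicle), the lowest chi-square was 13.5 per degree of freedom, so none of these pairs agreed within sampling noise; other pairs were not checked. The deviations of same-numbered LPS and vehicle mice from their group means correlated by 0.12 to 0.17 in females, every pair above 0.1. In males they correlated by -0.09 to -0.001. Mice with different numbers were not compared in this way, so these values cannot decide whether the numbers pair the mice. No pairing was taken from the labels, and the fit has no block.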

Additional observations from a re-analysis of the deposited data

Results flagged for a closer look

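In groups of 6 and 8 mice, a value was picked out where the gap between the lowest or highest mouse and its nearest neighbour was a large part of the group's range (Dixon's test at the 95% level). This was looked at for 17 measures in the WT LPS and WT vehicle mice, 34 groups in all, and 3 values were picked out; chance picks out about 1 group in 20. Over the rows that rose in KO mice, WT male LPS replicate 2 had a median log2 difference of 0.46, the lowest of the LPS mice. In row 9768, the same mouse had the highest LPS level, 708 CPM, with the other 7 LPS mice at 589 CPM or less. In row 3882, WT male vehicle replicate 2 had the highest vehicle level, 40.03 CPM, with the other 5 vehicle mice at 28.4 CPM or less.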

How the results depend on the processing

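The counts of called rows were recomputed under other settings, and no fold change of a named row changed sign. The larger of the 2 directions turned in females with voom (1478 rose, 1508 fell) and for 24 h against 6 h without 6 h replicate 1 (81 higher, 84 lower). For WT LPS against vehicle, the first run of library numbers alone gave 2382 rows and the second 1879, with fewer mice in each; leaving out 1 library gave 3433 to 4086. Females gave 755 and 1151 in the runs alone, where the first run has 1 female vehicle mouse, and 1485 to 1998 with 1 library left out. Males gave 2480 with voom, 259 in the second run alone and 862 to 1815 with 1 library left out. The second run has 1 male LPS and 1 male vehicle mouse, so there, as for any arm of 1 mouse, the spread comes from the other groups and the lone mouse is assumed to vary like them. The response by sex gave 7 rows with DESeq2, 1 in the second run alone and 0 to 0 with 1 library left out. WT minus KO gave 1 without a filter, 10 with DESeq2, 1 with voom, 1 with a run term, 2 in the first run alone and 0 to 2 with 1 library left out. Males at 24 h against 6 h gave 1406 with DESeq2, 2135 with voom, 53 in the compared groups alone and 165 to 1648 with 1 library left out; of the 53, 79.2% were higher at 24 h. The share of rows with the same direction in both runs, 96.9%, was 95.1% without WT male LPS replicate 2, and the coefficient of variation was 39.2%. Elsewhere the cause of a move was not tested.

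With the replicate number as a block, 3156 rows were called for WT LPS against vehicle, 1538 in females, 754 in males, 0 for the response by sex, 0 for WT minus KO and 273 for 24 h against 6 h. Depth limits the calls in scarce rows, where small changes do not pass the test.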
